A study of Mus musculus with 13 samples.

Results

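The genes described here encode chromatin modifiers and remodelers, chosen by name from the protein-coding genes of GENCODE vM1 on the mouse build mm9. Symbols starting with Kdm, Hdac, Setd, Chd, Arid or Brd and a number, or with Smarc, gave 76 gene entries among 22380. The 76 entries carry 75 symbols, because Hdac4 is annotated as a long and a short entry. By family there were 16 Kdm, 9 Setd, 12 Hdac, 7 Brd, 13 Smarc, 10 Arid and 9 Chd entries. No measured value was used to choose them.

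The measurement was DRIP-seq, in which genomic DNA is cut with 5 restriction enzymes and fragments that hold hybrids of RNA and DNA are pulled down with the S9.6 antibody. The cells were N2a, a mouse neuroblastoma line, transfected with a scramble siRNA (siScramble) or with siRNA against DDX1, an RNA helicase, or EXOSC3, a cap subunit of the RNA exosome. Each of the 3 siRNA groups had 3 untreated libraries and 1 library from DNA digested with RNase H, the enzyme that degrades the RNA of such hybrids. All cells were of 1 line, a knockdown lowers a protein without removing it, and RNA levels and knockdown were not measured in these libraries.

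Group names follow the sample titles. In 12 of 12 peak lists the peak names give another siRNA than the title, in a fixed rotation. Peaks under a siScramble title carry the name siDDX1, those under a siDDX1 title the name siEXOSC3, and those under a siEXOSC3 title the name siScramble. Directions between siRNA groups below are therefore those of the titles and may belong to other groups. Comparisons of RNase H-digested with untreated libraries, and counts over all untreated libraries, do not depend on this.

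An R-loop is a stretch of RNA paired with 1 strand of the DNA, with the other strand left unpaired. R-loops form during transcription and are known from GC-rich gene starts and from gene ends. The encoded proteins act on nucleosomes in different ways. Kdm enzymes remove methyl groups from histone lysines, Setd proteins share the SET domain of lysine methyltransferases, and Hdac enzymes remove acetyl groups. Brd proteins bind acetylated lysines through bromodomains. Smarc proteins and several Arid proteins are subunits of remodeling complexes such as BAF, the mammalian SWI/SNF complex, and Chd proteins are chromodomain remodelers.

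The untreated lists held 23882 to 42571 peaks covering 21.97 to 45.3 Mb, and the RNase H lists 3811 to 8034 peaks covering 2.04 to 4.36 Mb. The lists give no read counts, so the reads behind a peak are unknown here. The shortest lists without digestion were siScramble replicate 1 and siDDX1 replicate 2. As a check of the cell line, 5 of 12 neuronal and neuroblastoma genes (among them Phox2a, Hand2, Gata2 and Tubb3) had a peak in all 9 untreated libraries. Only 8 of the 12 had a peak in at least 1. None of the 16 genes of liver, blood, muscle or epithelium had a peak in any. Among all protein-coding genes 26.2% had a peak in all 9 and 50.1% in none. Peaks mark hybrids and not RNA level, so this check covers only which loci carried them.

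Sequences are shown first for the starts of Brd2 and Kdm6b, because both genes were covered over most of their length while their annotated starts differ in base composition. Each run is the 300 bases just upstream of the annotated gene start in mm9, written 5′ to 3′ on the strand of the gene, with CG in capitals. Brd2 lies at chr17:34259263-34259562 and Kdm6b at chr11:69227178-69227477, both on the minus strand.
Brd2: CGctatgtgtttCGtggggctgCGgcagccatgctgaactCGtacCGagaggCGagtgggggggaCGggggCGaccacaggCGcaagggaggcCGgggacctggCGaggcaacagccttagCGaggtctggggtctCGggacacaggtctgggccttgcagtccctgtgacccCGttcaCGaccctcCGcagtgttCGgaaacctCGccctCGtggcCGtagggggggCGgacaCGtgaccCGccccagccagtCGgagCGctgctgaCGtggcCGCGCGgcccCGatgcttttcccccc
Kdm6b: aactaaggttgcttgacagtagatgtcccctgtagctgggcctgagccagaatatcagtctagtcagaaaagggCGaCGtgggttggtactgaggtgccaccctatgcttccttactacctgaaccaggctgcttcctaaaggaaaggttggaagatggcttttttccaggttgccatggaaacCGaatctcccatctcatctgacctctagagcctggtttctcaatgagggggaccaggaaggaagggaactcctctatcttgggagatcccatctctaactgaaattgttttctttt
The Brd2 window held 30 CG and was 70% G or C, and the Kdm6b window held 3 CG and was 48.7% G or C. Over the 76 entries the same window held a median of 21.5 CG, against 9 over all 22380 genes. At least 1 CG, which reads the same on both strands, was found in 96.1% of the 76 windows and 93.9% of all windows.

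Most chromatin genes carried peaks in every untreated library. A call required 1 base or more of a peak within the gene bounds extended by 1 kb. Of the 76 entries, 57 (75%) were called in 9 of 9 untreated libraries, against 26.2% of all genes. Another 12 were called in 1 to 8 libraries, and 7 (9.21%) in none, against 50.1% of all genes with no call. Single untreated libraries called 59 to 68 of the 76 entries (77.6 to 89.5%) and 32.4 to 43.1% of all genes. The 7 entries with no untreated peak were Kdm1b, Kdm5d, Hdac8, Hdac9, Smarca1, Smarca2 and Arid3b.

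Chromatin genes are long, with a median of 46.2 kb against 15.4 kb for all genes, so the comparison was repeated within 3 length classes of equal size over all genes. Among genes under 7.44 kb, 3 of 4 chromatin genes (75%) and 16.3% of all genes were called in 9 of 9 libraries. From 7.44 to 29.3 kb the shares were 81.0% of 21 and 32.01%, and above 29.3 kb they were 72.5% of 51 and 30.3%. In each class the share of chromatin genes lay above that of all genes. The level of transcription, which is not in these files, may differ between the chromatin genes and all genes, and its part was not tested. A list of 86 other chromatin genes, such as Polycomb, acetyltransferase, DNA methyltransferase and Tet genes, had 63.95% called in 9 of 9 libraries and 3.49% in none.

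**Figure D1:**
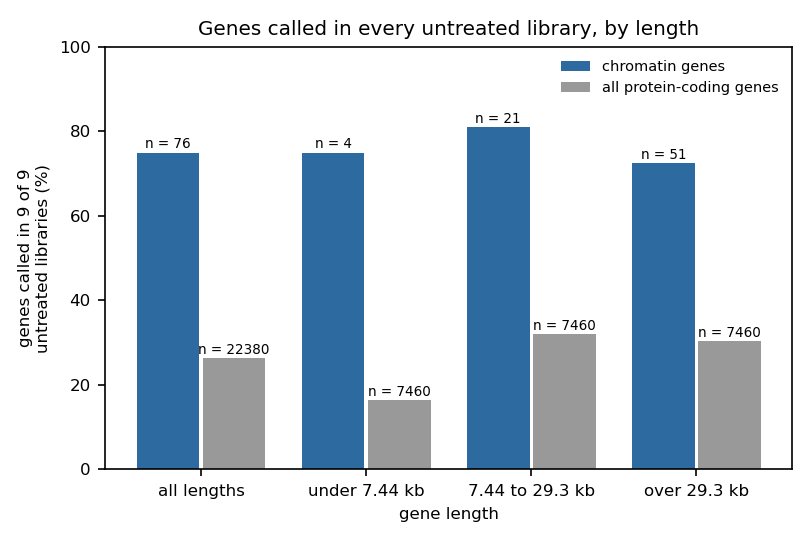
Percent of genes called in 9 of 9 untreated libraries (y axis) for chromatin genes (blue) and all protein-coding genes (grey), by gene length (x axis), with the number of genes over each bar. Over all lengths the bars stand at 75% and 26.2%, and the chromatin bars lie between 72.5% and 81.0% in the 3 length classes.

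The amount covered differed widely among the genes. Covered bases are the bases of the extended gene that lie under a peak. The median over the 76 entries of the mean over 9 untreated libraries was 3708 bases, and the highest was that of Arid1a, the DNA-binding subunit of canonical BAF, at 27435 ± 6635 bases (SD, n = 9). Arid1a ranged from 19551 bases in siEXOSC3 replicate 2 to 37602 bases in siScramble replicate 3. As a share of the extended gene the order was another: Brd2 was covered over 86.2% and Kdm6b over 86.1%, against 34.4% for Arid1a. Only 4 of the 76 entries (5.26%) were covered over more than 50% of their length, near the 4.65% of all genes. Over 25% stood 17 entries (22.4%), against 10.95% of all genes.

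**Figure D2:**
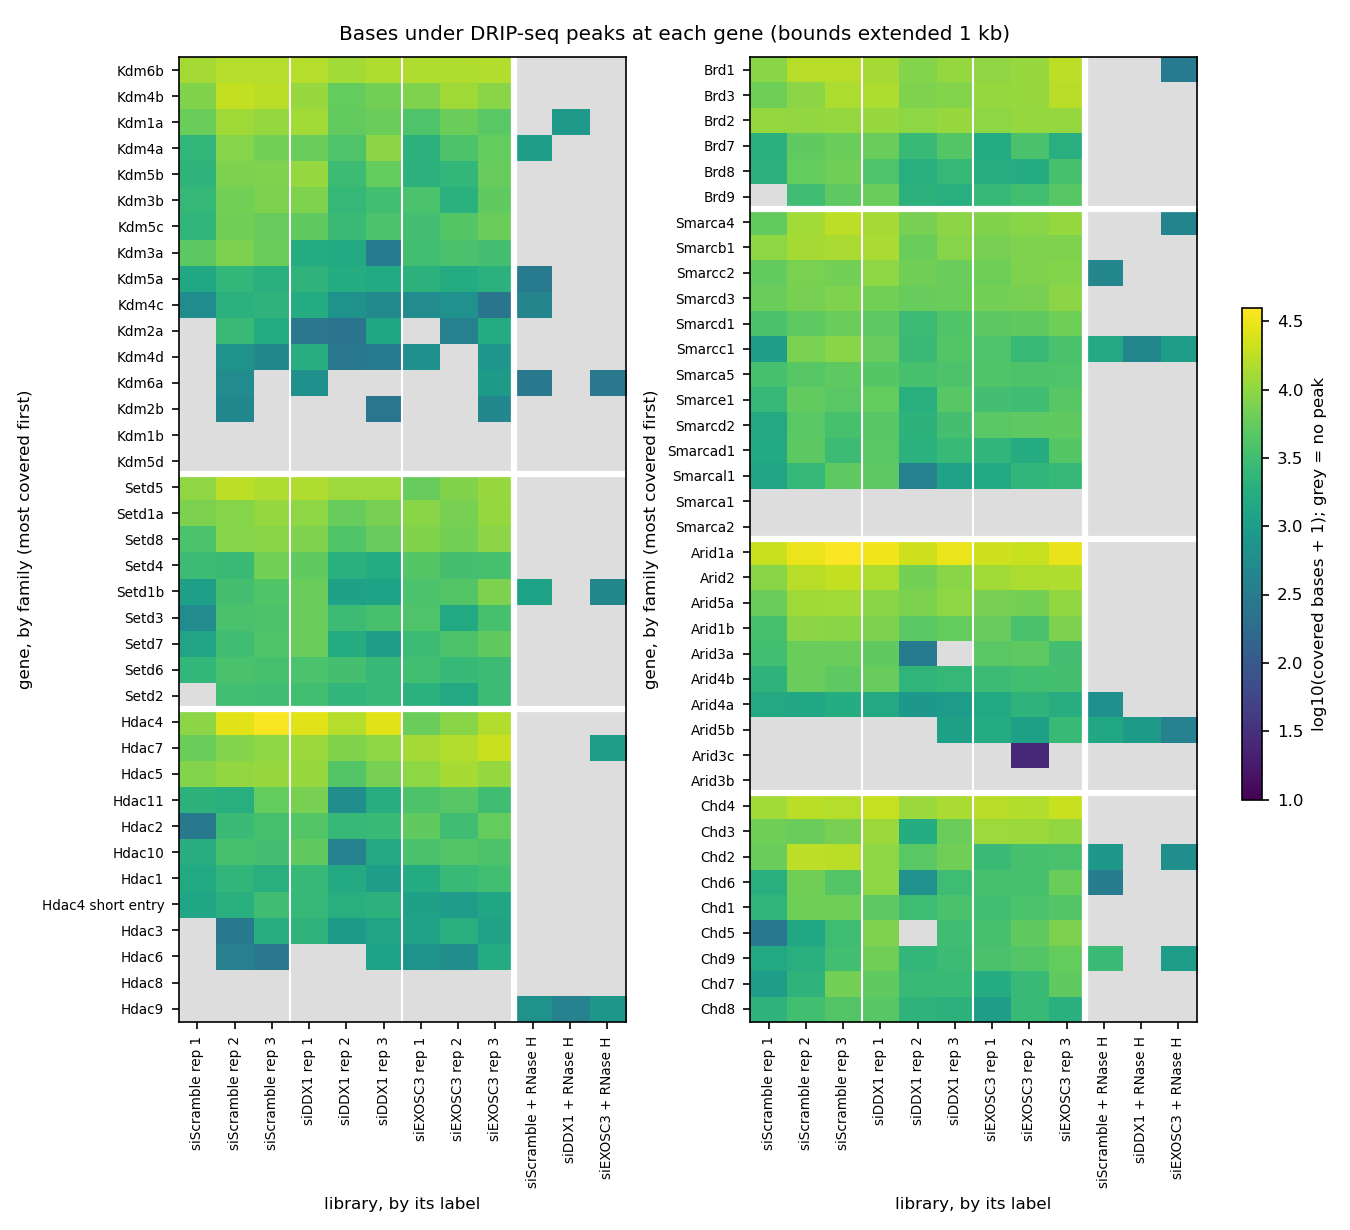
Bases under peaks at 75 of the 76 gene entries (rows, by family, most covered first) in the 9 untreated and 3 RNase H libraries (columns), as log10(covered bases + 1) in color, with grey for no peak. In the untreated columns 56 rows are filled throughout and 7 are empty, while 17 rows have a filled cell in an RNase H column.

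Among the Kdm demethylases 10 of 16 were called in 9 of 9 libraries. Kdm6b, which removes the repressive methyl mark set by Polycomb, had 14785 ± 1259 covered bases (SD, n = 9), with 12468 as the lowest and 16021 as the highest library. Kdm4b, an H3 lysine demethylase, had 10670 ± 4387 bases, from 5559 in siDDX1 replicate 2 to 18361 in siScramble replicate 2. Kdm2b, which brings a Polycomb complex to CpG islands, was the least covered gene of the family with any call, at 132 bases on average and in 3 libraries only. Kdm1a, the LSD1 demethylase, had 7606 ± 3324 bases and a start-site peak in every untreated library.

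All but 1 of the 9 Setd genes were called in 9 of 9 libraries. Setd5 had the most bases, 11722 ± 3544 (SD, n = 9), and Setd1a, a methyltransferase of the active mark at promoters, had 8559 ± 1664. Setd2, which sets the methyl mark laid down over transcribed gene bodies, had the fewest at 2328 ± 1063, with no peak in siScramble replicate 1. Setd6 is only 3.10 kb long and was covered over 61.5% of its extended length, the highest share of the family.

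The Hdac family had 8 of 12 entries called in 9 of 9 libraries and the lowest family median, 2569 covered bases. The class IIa deacetylase genes Hdac4, Hdac5 and Hdac7 held the most, while Hdac9 of the same class had no untreated peak. The long Hdac4 entry had 19347 ± 10546 bases (SD, n = 9), from 5908 in siEXOSC3 replicate 1 to 36161 in siScramble replicate 3. Hdac7 had 11330 ± 4156 bases and Hdac5 had 9639 ± 2600. Hdac1 and Hdac2, the catalytic subunits shared by several corepressor complexes, had 2043 ± 688 and 3352 ± 1576 bases. Hdac6, a mostly cytoplasmic deacetylase, was lowest among the entries with a call, at 537 ± 586 bases. The short Hdac4 entry spans 2.39 kb just beyond the end of the long one, and the extended windows of both overlap.

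The Brd genes had the highest family median, 10604 covered bases, and 6 of 7 were called in 9 of 9 libraries. Brd1, a subunit of acetyltransferase complexes, had 12547 ± 3359 bases (SD, n = 9). Brd2, which encodes a BET protein, varied least, at 10604 ± 514 bases with 9761 as the lowest and 11226 as the highest library. Brd3, which encodes another BET protein, had 11079 ± 3373 bases and no start-site peak in any library. Brd9, a subunit of a noncanonical BAF complex, was lowest at 3207 ± 1901 bases.

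Of the 13 Smarc entries 11 were called in 9 of 9 libraries and the others, the ATPase genes Smarca1 and Smarca2, in none. Smarca4, the alternative BAF ATPase to Smarca2, had 10433 ± 3543 bases (SD, n = 9), from 5474 to 17256. The paralogs thus stood apart: Smarca4 was called in every untreated library and Smarca2 was not. The same held for the ISWI ATPases, with Smarca5 at 4166 ± 508 bases and Smarca1 without a peak. The core subunit Smarcb1 had 9856 ± 3055 bases, and Smarcal1, an annealing helicase outside BAF, was lowest of those called at 2454 ± 1654.

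In the Arid family 6 of 10 genes were called in 9 of 9 libraries. Arid2, the subunit that marks the PBAF form of the complex, came after Arid1a with 12917 ± 3744 bases (SD, n = 9). Arid1b, the paralog of Arid1a, had 6404 ± 2201 bases in a gene of 353 kb, 1.80% of the extended length. Arid3c was called in 1 library by 24 bases.

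Of the 9 Chd genes 8 were called in 9 of 9 libraries. Chd4, the main ATPase of the NuRD complex, had 15730 ± 2842 bases (SD, n = 9), from 11411 to 20070. Its relative Chd3 had 8098 ± 3471 bases, and Chd5, known from neural tissue, had 3609 ± 2926 with no peak in siDDX1 replicate 2. Chd8 was lowest at 2703 ± 1173.

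Peaks were densest around the annotated gene start. At the annotated start, 34.8 ± 8.01% of the 76 entries (SD over 9 untreated libraries) lay under a peak, against 13.2 ± 3.20% of all genes. At 1 kb into the gene the shares were 33.6 ± 5.55% and 11.3 ± 2.54%, and at 3 kb they were 9.06 ± 2.02% and 6.40 ± 1.45%. The RNase H libraries averaged 0.439% and 0.209% at the start itself.

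**Figure D3:**
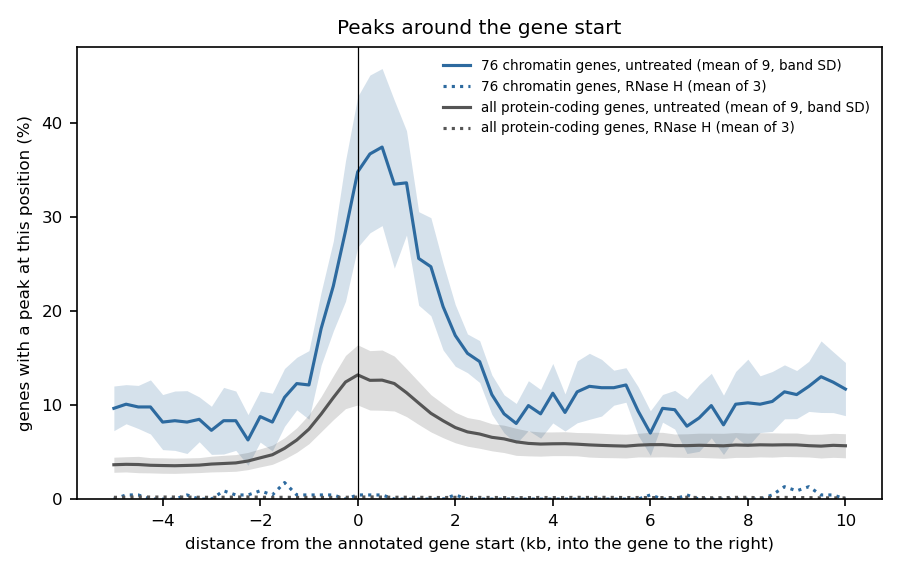
Percent of genes with a peak at each distance from the annotated gene start (x axis, kb, positive into the gene), for the 76 chromatin genes (blue) and all protein-coding genes (grey), as the mean (line) and SD (band) of 9 untreated libraries and the mean of 3 RNase H libraries (dotted). At the start the chromatin genes stand at 34.8% and all genes at 13.2%, and the dotted lines stay close to 0.

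Peaks of the untreated libraries that overlapped were merged into 822 regions at the chromatin genes. Of these, 103 (12.5%) were called in 9 of 9 libraries, against 10.7% of 69497 regions in all, and 340 (41.4%) were called in 1 library alone, against 45.3% of all regions. Regions at gene starts were called in 9 of 9 libraries in 26 of 67 cases (38.8%) and regions at gene ends in 26 of 75 (34.7%). Exonic regions reached 13.4% of 246 and intronic regions 4.15% of 434. These shares by place were not computed over the regions of all genes. A region within 1 kb of the start, and then of the end, was counted there first, so wide regions fell there more readily. The regions called in all 9 libraries were long, with a median of 3379 bases against 603 bases over all 822.

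A peak within 1 kb of the annotated start was found in 9 of 9 untreated libraries for 22 entries (28.9%), against 11.2% of all genes. Another 35 had one in 1 to 8 libraries, and 19 had none. The strength of these peaks is given as fold enrichment over the local background, as deposited. For the 22 entries the median fold enrichment was 12.6, against 10.5 for the 2497 genes with such a peak in every library. Ranked within its own list of peaks, the start-site peak had a median percentile of 94.1 for the 22 entries and 90.5 for the 2497 genes.

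Brd2 had the strongest start-site peak of the 22, with a median fold enrichment of 48.9 over 9 libraries, 32.6 as the lowest and 73.4 as the highest. It lay above the 99th percentile of its list in each library, with 99.8 as the lowest. Setd5 had a median of 31.5 and a range from 21.3 to 67.6, and Kdm6b had a median of 25.2 and a range from 14.8 to 46.7. Both genes thus stayed in the top of their lists, at 97.6 or higher in every library. Arid1a behaved differently, with a median of 32.5 but values of 7.04, 4.09, 6.21 and 8.96 in siScramble replicate 1, siDDX1 replicates 2 and 3 and siEXOSC3 replicate 3. Its other 5 libraries lay between 32.5 and 42.3, so the libraries fell into a high and a low set that crossed the siRNA groups.

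**Figure D4:**
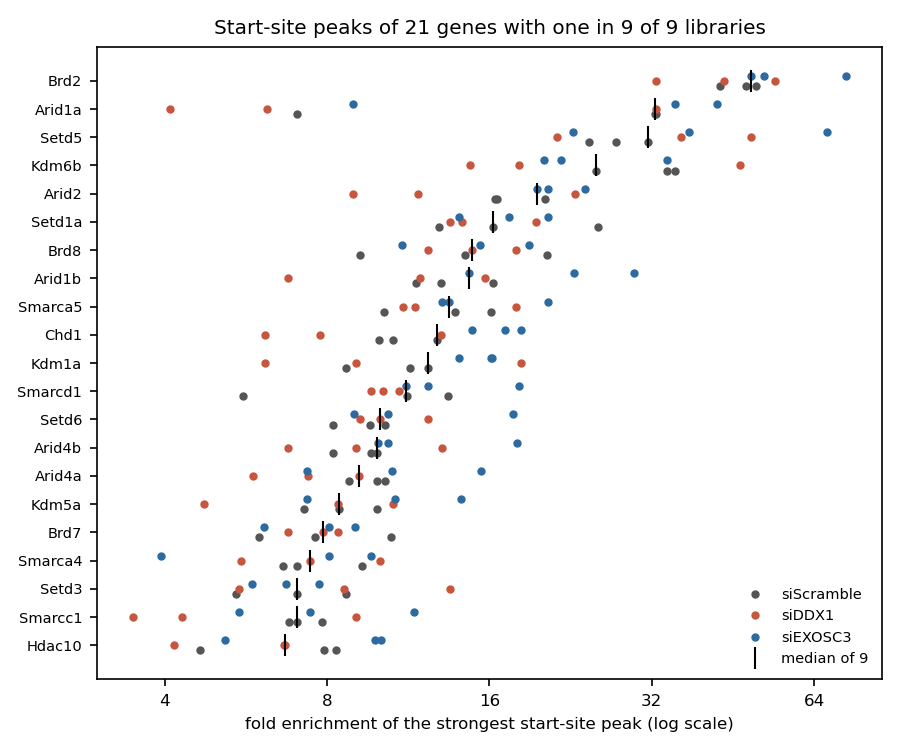
Fold enrichment of the strongest start-site peak (x axis, log scale) in each untreated library for 21 of the 22 genes with such a peak in 9 of 9 libraries (rows, ordered by median), with 1 dot per library colored by labelled siRNA group and a bar at the median. Brd2 lies highest with a median of 48.9 and Hdac10 lowest with a median of 6.68, and the 3 colors overlap in most rows.

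GC content and CpG ratio at the start went with the start-site peaks. Within 500 bases of the annotated start, the 22 entries with a start-site peak in every untreated library had a median GC content of 66.3%, the 35 with one in some libraries 63.0%, and the 19 with none 58.8%. The observed over expected CpG ratio was 0.831, 0.783 and 0.542 in the same order. All genes showed the same order at lower values, with a GC content of 61.7%, 59.5% and 50.9%. Kdm6b ran against this order, with a CpG ratio of 0.172 and a GC content of 53.0% at its annotated start. It held 2 regions at its start that were called in 9 of 9 libraries, chr11:69214619-69227806 over the gene and its annotated start and chr11:69227971-69237398 upstream of it. No start-site peak was found at Kdm1b or Smarca2, although their CpG ratios were 0.744 and 0.835. The median GC skew, the excess of G over C, was 0.114, 0.054 and 0.089 in the same classes of entries and did not follow the order. Over all genes it was 0.068, 0.0625 and 0.031 and did follow the order. The restriction fragment that holds the start had a median length of 2239.5, 1801 and 1845 bases in these classes of entries. Over all genes the lengths were 2385, 1805 and 1316 bases. The part of fragment length was not tested.

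The sites of the restriction enzymes set the edges of many peaks. In the untreated libraries 56.5 ± 4.26% of the peaks at chromatin genes (SD, n = 9) had an edge exactly on a cut, counting the filled-in end of a 5′ overhang on the right side. Both edges lay on cuts in 7.23 ± 1.87% of them. At the starts of Brd8, Setd1a and Smarca5 a peak with the very same edges was called in 9 of 9 libraries, each running from cut to cut. For Setd1a and Smarca5 the 24 bases around each edge are shown on the plus strand of mm9, with the recognition site in capitals.
Setd1a, HindIII end: gttcccaagtgAAGCTTgaacgag
Setd1a, BsrGI end: tcatgtgTGTACAttcataaataa
Smarca5, SspI left end: attgtaaatAATATTcttgctcca
Smarca5, SspI right end: ggaatagatAATATTcatatataa
The Setd1a peak at chr7:134919394-134923029 was 3636 bases wide and the Smarca5 peak at chr8:83260747-83264299 was 3553 bases. These widths are those of the restriction fragments that hold the starts. Covered bases at such a start therefore count whole fragments and do not give the length of the hybrid itself. In siScramble replicate 1 and siDDX1 replicate 2 the 3553 bases of this fragment were all that was covered at Smarca5.

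RNase H digestion removed most of the calls. The digested siScramble, siDDX1 and siEXOSC3 libraries called 13, 4 and 10 of the 76 entries (17.1%, 5.26% and 13.2%), against 10.8%, 5.88% and 6.13% of all genes. These shares were not split by gene length. A model with the siRNA group and the digest as terms was fitted with limma to log2(covered bases + 100) over 10023 genes. Of the 69 chromatin entries tested, 63 had fewer covered bases after digestion at an adjusted p under 0.05, against 73.9% of all genes tested. The exact permutation test that moves the RNase H label within siRNA groups can reach 0.015625 at the least. It gave this value in 54 entries that were lower after digestion, and 61 such entries had an adjusted p under 0.05. Only 17 of the 76 entries had a peak in any digested library. The other entries tested entered the fit only through untreated libraries and could only come out lower. The same holds for all genes with no digested peak, so these counts are not given as support.

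Brd2 and Kdm6b were covered over at least 79.4% and 72.6% of the extended gene in every untreated library. Both were listed at 0 bases in each digested library. Arid1a, with at least 19551 bases in each untreated library, was listed at 0 in all 3 as well. Brd2, Kdm6b and Arid1a entered the fit only through the untreated libraries, so their p-values are not given as support. The 5 entries that passed neither way were Arid5b, Kdm6a, Kdm2b, Kdm2a and Hdac6, all of them low or absent in several untreated libraries. One library per group was digested, so its spread was taken from the untreated libraries. The digested lists were short over the whole genome, as the peak numbers above show.

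Hdac9, a class IIa deacetylase gene of 481 kb, was the 1 entry with more covered bases after digestion at an adjusted p under 0.05, against 3.34% of all genes tested. Arid5b and Kdm6a had log2 differences of 1.41 and 0.30, with adjusted p-values of 0.231 and 0.778 by limma. Hdac9 was listed at 0 in 9 of 9 untreated libraries and had 698, 399 and 806 bases in the digested siScramble, siDDX1 and siEXOSC3 libraries. Because it entered the fit only through the digested libraries, it had to differ, and its adjusted p is not given as support. Its 4 peaks were intronic, and 3 of them shared a place near chr12:34858610-34858717.

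In all, 17 entries (22.4%) had a peak in at least 1 digested library, against 13.5% of all genes. Above 29.3 kb in length the shares were 31.4% of 51 entries and 29.0% of all genes. From 7.44 to 29.3 kb they were 4.76% and 8.91%, and under 7.44 kb 0% and 2.69%. The higher share over all lengths was thus not seen in each length class. The 17 entries held 43 such peaks, of which 30 were intronic, 5 at ends, 4 in exons and 4 at starts. Of the 43 peaks, 24 overlapped no peak of any untreated library. The same share over all digested peaks was not computed, so this count is not specific to the chromatin genes. Of the merged untreated regions at chromatin genes 1.95% overlapped a digested peak, against 3.16% of all regions. At Kdm4a, Kdm4c, Kdm5a, Kdm6a, Hdac9, Smarcc2, Arid4a, Arid5b and Chd6 no digested peak overlapped an untreated one. Digested peaks that met untreated ones were found at Kdm1a, Setd1b, Hdac7, Brd1, Smarca4, Smarcc1, Chd2 and Chd9. Peaks that recurred in all 3 digested libraries lay in Arid5b, where they shared chr10:67629895-67630291, and in Hdac9. At Smarcc1, a core BAF subunit, an intronic peak at chr9:110074211-110075247 had the same edges in the digested siScramble and siEXOSC3 libraries. Smarca4 had a digested peak in siEXOSC3 inside a stretch called in 9 of 9 untreated libraries.

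The question of the siRNA groups is whether lowering DDX1 or EXOSC3 moves hybrids at these genes. No chromatin gene passed the test in any of the 3 comparisons. Covered bases were tested with limma on log2(covered bases + 100) for 9675 genes called in at least 3 untreated libraries, 68 of them chromatin entries, with 3 libraries per group. Between libraries labelled siDDX1 and siScramble 0 of 68 entries were called in either direction, against 0.031% of all genes higher and 0.031% lower. Between siEXOSC3 and siScramble 0 of 68 were called, against 0.279% higher and 0.0207% lower. Between siEXOSC3 and siDDX1 0 of 68 were called, against 0.258% higher and 0.0207% lower. At an unadjusted p under 0.05 there were 2, 5 and 5 entries (2.94%, 7.35% and 7.35%) in the same order, against 2.78%, 4.98% and 5.05% of all genes tested. The exact permutation test of 3 against 3 libraries cannot go below 0.1 and called none after adjustment.

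By family the signs were mixed. Of the Hdac entries 8 of 10 tested had more covered bases in siEXOSC3 than in siScramble, with a median log2 difference of 0.47. Of the Kdm entries 10 of 14 had fewer, with a median of -0.53. Of the Arid entries 7 of 8 had fewer in siDDX1 than in siScramble, with a median of -0.26, where the median over all 9675 genes was -0.14. No member of these families passed the test, and counts of signs were not tested. Of the 86 other chromatin genes, 78 were tested and 0 were called in each of the 3 comparisons, with 1 to 2 at an unadjusted p under 0.05. After RNase H digestion 68 of these 78 had fewer covered bases and 0 had more at the same threshold. Those with no digested peak could likewise only come out lower.

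Kdm3a, an H3 lysine demethylase that removes a repressive mark, had the smallest p between siDDX1 and siScramble. Its covered bases were 4899, 7825 and 6269 in siScramble, 1674, 1517 and 314 in siDDX1, and 3187, 3717 and 3296 in siEXOSC3. The 3 groups did not overlap, with siScramble highest and siDDX1 lowest. The share of all genes with 3 separate groups was not computed. The log2 difference of siDDX1 from siScramble was -2.58 with an SE of 0.55, and the adjusted p was 0.725 by limma. Kdm3a was the 1 entry with every siScramble library above every siDDX1 library, where 2.15% of all genes tested were so, and 0 entries had the opposite order, where 0.941% were. Regions in Kdm3a at chr6:71545046-71547472 and chr6:71565936-71567019 were called in 3 of 3 siScramble and 0 of 3 siDDX1 libraries.

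Arid3a, a DNA-binding protein of B cells and other lineages, had 3235, 5906 and 5900 bases in siScramble, 5217, 299 and 0 in siDDX1, and 4743, 5159 and 3339 in siEXOSC3. Its low values came from siDDX1 replicates 2 and 3, while replicate 1 was within the range of the other groups. The log2 difference of siDDX1 from siScramble was -3.05 with an SE of 1.28 (adjusted p = 1 by limma). Without siDDX1 replicate 1 it was -4.63, with an adjusted p of 0.0353, and without siDDX1 replicate 3 it was -1.76, with an adjusted p of 1. Arid3a also held a region at chr10:79413552-79415292 called in 3 of 3 siScramble and 0 of 3 siDDX1 libraries. Kdm4b, Hdac3 and Arid4a came after it, with log2 differences of -0.84, 1.83 and -0.51 and adjusted p-values of 1. The Hdac3 difference was 0.80 without siScramble replicate 1 and 2.92 without siScramble replicate 3.

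Arid5b, a DNA-binding partner of a histone demethylase, had the largest difference between siEXOSC3 and siScramble. It was listed at 0 in 3 of 3 siScramble libraries, at 0, 0 and 1147 bases in siDDX1, and at 1627, 1117 and 2632 bases in siEXOSC3. It was the 1 entry called in 3 of 3 siEXOSC3 and 0 of 3 siScramble libraries, where 0.86% of 11165 genes with a call were so. On the log2(covered bases + 100) scale the difference was 4.16 with an SE of 0.95, and the adjusted p was 0.379 by limma. Because siScramble was at 0, its size depends on the pseudocount, with 7.41 at 10 bases and 1.45 at 1000 bases. The adjusted p fell under 0.05 where only peaks with a −log10 q of at least 5 were kept, and without siDDX1 replicate 3. In both settings Arid5b entered the fit only through the siEXOSC3 libraries. It therefore had to differ, and these adjusted p-values are not given as support. Its exonic region at chr10:67560330-67561303 was called in 3 of 3 siEXOSC3, 1 of 3 siDDX1 and 0 of 3 siScramble libraries. The digested siScramble library had 1454 covered bases at Arid5b, more than any untreated siScramble library. No other entry was called in all libraries of 1 siRNA group and in none of another. Of all genes with a call, 0.17% had siScramble calls and no siEXOSC3 call, 0.179% and 0.233% were split between siDDX1 and siScramble in favor of either, and 0.743% and 0.197% between siEXOSC3 and siDDX1.

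Chd2, a remodeler gene linked to epilepsy, came next. Its covered bases were 6048, 17248 and 17083 in siScramble, 9803, 4704 and 6602 in siDDX1, and 2848, 3621 and 3681 in siEXOSC3. The siEXOSC3 libraries lay below every library of both other groups, an order whose share over all genes was not computed. The log2 difference from siScramble was -1.82 with an SE of 0.47, and the adjusted p was 0.524 by limma. Hdac7 ran the other way, with 6267, 8457 and 9632 bases in siScramble, 11311, 8393 and 9763 in siDDX1, and 12987, 15406 and 19753 in siEXOSC3. Its siEXOSC3 libraries lay above all others, with a log2 difference of 0.98 from siScramble, an SE of 0.26 and an adjusted p of 0.572 by limma. An exonic region at chr15:97627216-97628353 in Hdac7 was called in 3 of 3 siEXOSC3 libraries and in no other untreated library. The shares of all genes and of all regions that set siEXOSC3 apart from both other groups in this way were not computed. Chd9, with a difference of 1.06, and the short Hdac4 entry, with -0.80, followed at an adjusted p of 0.975 each. The short Hdac4 difference was -0.48 without siScramble replicate 3.

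Every siEXOSC3 library lay above every siScramble library in 7 of the 68 entries, Arid5b, Chd3, Chd5, Chd9, Hdac6, Hdac7 and Hdac10, where 7.39% of all genes tested did so. The opposite order was seen in 5 entries, Kdm1a, Kdm3a, Smarcb1, Chd2 and the short Hdac4 entry, where 4.09% did so. Chd3 had 6403, 5982 and 7332 bases in siScramble and 12008, 11497 and 10478 in siEXOSC3. Its siDDX1 libraries spread from 1687 to 11394. Between siEXOSC3 and siDDX1, 5 entries lay wholly above, where 5.83% did so, and 4 wholly below, where 2.73% did so.

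Single regions were split in the same way at a few genes. Of the 822 regions, 1 (in Hdac4) had a peak in every siDDX1 library and in no siScramble library, against 0.2% of all regions. The opposite held for 5 regions, in Kdm3a, Kdm1a, Arid3a and Chd2, against 0.403%. In siEXOSC3 and not in siScramble there were 9, in Arid5b, Chd3, Chd4, Hdac2, Hdac7 and Setd1b, against 0.544%, and the other way 5, in Chd2, Hdac4, Kdm1a, Kdm3a and Kdm4c, against 0.512%. In siEXOSC3 and not in siDDX1 there were 5, in Hdac2, Hdac7, Setd1b and Setd7, against 0.506%, and the other way 4, in Arid1a, Brd7, Hdac3 and Hdac4, against 0.393%. Both regions of this kind in Hdac2 lay at the gene end, at chr10:36719756-36720940 and chr10:36721721-36722779, and were called in 3 of 3 siEXOSC3 libraries and in no other untreated library. The share of all regions called in 1 group alone was not computed. The region in Setd7 lay at the gene start, at chr3:51363530-51364609, and was called in 1 of 3 siScramble libraries as well.

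**Figure D5:**
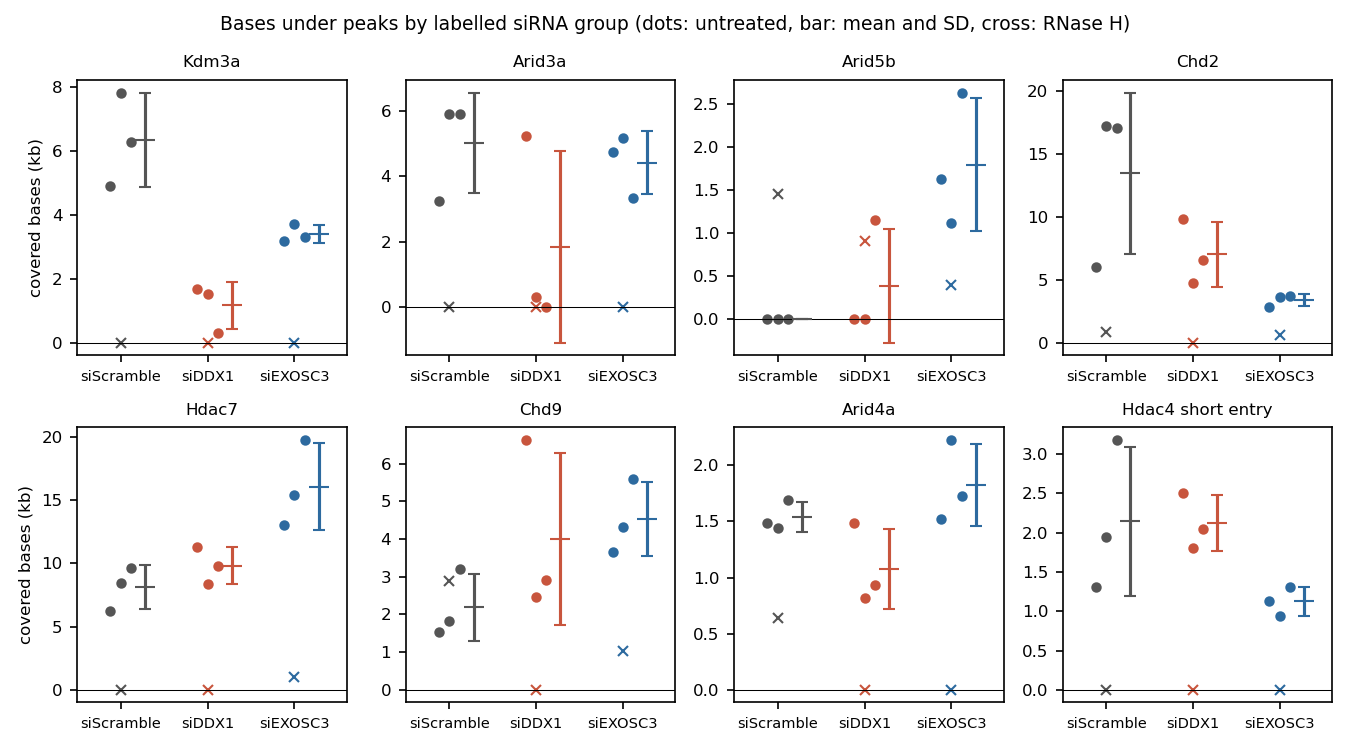
Covered bases (y axis, kb) in each untreated library by labelled siRNA group (dots), with the mean and SD of 3 libraries (bar) and the RNase H library of the group (cross), for 8 entries among those with the smallest p between groups. In Kdm3a the siDDX1 dots lie lowest, in Arid5b the siScramble dots lie at 0, and in Hdac7 the siEXOSC3 dots lie highest; none of the 8 passed the adjusted threshold.

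The strength of start-site peaks was compared for the 22 entries with one in every untreated library, on log2 fold enrichment centered on the median of each library, among 2497 genes. No entry was called in the 3 comparisons. Between siDDX1 and siScramble 0 of 2497 genes were called, with 226 at an unadjusted p under 0.05, 1 of them a chromatin gene. Between siEXOSC3 and siScramble 0.12% of all genes were called higher and 0.601% lower. Between siEXOSC3 and siDDX1 0.0801% were called higher and 0.641% lower.

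Arid1b, the alternative to Arid1a in BAF, had a fold enrichment of 11.7, 13.0 and 16.3 in siScramble, 15.7, 6.76 and 11.9 in siDDX1, and 23.0, 14.7 and 29.6 in siEXOSC3. The raw values of siEXOSC3 overlapped those of both other groups. After centering, siEXOSC3 differed from siDDX1 by 0.66 on the log2 scale with an SE of 0.23 (adjusted p = 0.135 by limma). Chd1, a remodeler that binds the active mark at promoters, differed by 0.64 with an adjusted p of 0.159, and Setd3 by -0.69 with 0.176. Between siEXOSC3 and siScramble the smallest p belonged to Arid1b (0.48, adjusted p = 0.332) and to Kdm6b (-0.53, adjusted p = 0.334). The Kdm6b difference was 0.29 when only peaks within 500 bases of its start were used, so its sign rested on the window.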

How the data were processed

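DRIP-seq peak lists of 12 libraries were used; 1 input sample was not analysed here. Per the submitters' processing notes, the authors aligned reads to mm9 with Bowtie2 2.4.4 and called peaks with MACS2 2.2.6 for each library against the input. The deposited lists give each peak's position, a display score (not used), the fold enrichment (a ratio to local background) and −log10 p-values (not used) and q-values. Protein-coding genes of GENCODE vM1 were extended by 1 kb, and called genes, covered bases and start-site peaks were counted in Python 3.11.15.

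Group comparisons used limma 3.58.1 in R 4.3.3 on log2(covered bases + 100), in genes called in at least 3 libraries, with Benjamini-Hochberg adjustment over all genes tested and an adjusted p of 0.05 as threshold, and were tested on simulated data. Replicate numbers come from the labels, which do not say that replicates were separate cultures, so p-values measure the spread between libraries.

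Named genes were, per family, the 2 most and the 1 least covered of those called; genes past the threshold, or in all libraries of 1 siRNA group and none of another; genes with a peak after RNase H; the 5 with the highest start-site percentile; those never called; and the 5 with the smallest p per comparison. Other genes named, such as Hdac5, Brd3 and Chd5, were chosen after their values were seen. A few items that these rules select are not reported here. The gene set, the lists of related and marker genes and the tests were chosen with earlier results of these data known.

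Alternatives were other pseudocounts (10, 1000), no filter beyond 1 call, equal peak numbers (23882), a −log10 q of at least 5, peaks up to 1000 bases apart joined, no extension, an exact permutation test, each library left out, a replicate block and, for enrichment, quantile normalization, no centering and a 500-base window; centering each library's covered bases was added after seeing the data.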

Additional observations from a re-analysis of the deposited data

Results flagged for a closer look

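At Arid5b the RNase H-digested library stood on opposite sides of the untreated ones in 2 siRNA groups. On the log2(covered bases + 100) scale it lay 3.96 above the mean of the untreated siScramble libraries, all of which were listed at 0, and it differed from the mean of the untreated siEXOSC3 libraries by -1.85. Every untreated siScramble library was below its digested library and every siEXOSC3 library above. With 1 digested library per group this difference was not tested.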

How the results depend on the processing

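The count of chromatin genes called between siRNA groups was 0 in each comparison under every pseudocount, the wider gene filter, joined peaks, no extension and centered libraries. The exact permutation test cannot go below 0.1 here and could only give 0. With every list shortened to the same number of peaks the count was 1 against siScramble and 1 against siDDX1. Both were Hdac6, higher in siEXOSC3 with a log2 difference of 2.68. Hdac6 entered this fit only through the siEXOSC3 libraries and had to differ, so its adjusted p-values are not given as support. With a −log10 q of at least 5 it was 1 (Arid5b) against siScramble and 1 against siDDX1. Arid5b likewise entered this fit only through the siEXOSC3 libraries and had to differ. With each library left out it ranged from 0 to 1 in all 3 comparisons. Arid5b was called without siDDX1 replicate 3, where it again entered only through siEXOSC3 and had to differ. Arid3a was called without siDDX1 replicate 1 (adjusted p = 0.0353 and 0.0272 by limma). The cause was not tested. Over all genes the counts of 6, 29 and 27 ranged from 0 to 86, 0 to 70 and 0 to 173, the highest of each without siDDX1 replicate 1. Start-site calls among chromatin genes stayed at 0 throughout, and over all genes the counts of 0, 18 and 18 ranged from 0 to 6, 0 to 18 and 0 to 71. The Kdm6b start-site difference reversed from -0.53 to 0.29 with the 500-base window (adjusted p = 0.487).

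Deviations of same-numbered libraries from their group means correlated weakly (from -0.168 to 0.203). With 3 libraries per group and lists of unequal length, this cannot exclude that the numbers pair them. A fit with the replicate block called 0 chromatin genes in covered bases and 0 in enrichment. The RNase H count of 64 ranged from 58 to 66. Entries called in 9 of 9 libraries ranged from 46 to 60, those with a start-site peak in all from 17 to 25, and those without a peak from 7 to 8. A peak list has no counts, so a change in signal within a covered stretch is not seen in covered bases.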
